A study of Mus musculus with 4 samples.

Results

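BTYNB was added to an antibody against PD-1 in mice with peritoneal ovarian tumours, and the tumour cells of their ascites were compared with those of mice given the antibody without BTYNB. BTYNB is a small molecule directed at the RNA-binding protein Igf2bp1. Cells were taken as tumour cells when they had at least 200 detected genes, at most 33% of unique molecular identifiers (UMIs) from mitochondrial genes, at least 5115 UMIs, at least 5 UMIs in all of Krt7, Krt8, Krt18, Krt19 and Wt1, and 0 UMIs of the leukocyte gene Ptprc. They also had at most 4 UMIs in all of Cd24a, Gkn2 and Krtdap, called the limit genes here. This left 6150 of 12163 anti-PD-1 cells (50.6%, 95% interval 49.7 to 51.5%) and 3738 of 7074 combination cells (52.8%, 51.7 to 54.0%), together 9888 of 19237 cells and 9888 of the 46342 cells of the series. The same rule kept 6347 of 7858 control cells and 2380 of 19247 BTYNB cells.

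All groups carried the same tumour, the Trp53 knockout ID8 line (ID8-Trp53-/-), which was injected into the peritoneum of 6-week-old female C57BL/6 mice and left for 7 days. Control animals received DMSO with an IgG2a isotype antibody, BTYNB animals received BTYNB with that isotype antibody, anti-PD-1 animals received DMSO with the PD-1 antibody clone RMP1-14, and combination animals received BTYNB with RMP1-14. The labels give 50 mg/kg of BTYNB and 100 ng of antibody a dose, at 2 doses a week until about 3 mL of ascites had formed. Other amounts of both agents are given in the study's methods, and the files do not settle which were used. Cells of the animals of a group were pooled into 1 library, so the spread between animals is unknown, no test was possible and no p-value is given.

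Igf2bp1 is an oncofetal protein that binds messenger RNAs, among them those of Hmga2, Myc, Actb and Cd44, and lengthens the life of many of them. PD-1 is an inhibitory receptor of T cells, so its antibody acts on tumour cells through other cells. ID8 cells come from the ovarian surface epithelium, a cover of mesothelial type that makes Wt1 together with simple keratins. When oxygen or its sensing falls, hypoxia-inducible factors bind the letters ACGTG near genes such as Vegfa, Pgk1 and Ero1a. Immediate early genes such as Jun, Fos and Atf3 respond within minutes to growth signals, stress and cell handling.

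Levels are UMIs summed over the tumour cells of a library and scaled to the library total (CPM), and ratios are log2 ratios of combination to anti-PD-1 after adding 1 CPM to each level. Intervals are 95% intervals of counting error only, since nothing in these libraries measures the error between animals. A gene is called higher or lower when its ratio is at least 1.5-fold. The tumour cells held 47930476 UMIs (anti-PD-1) and 45020023 UMIs (combination), with a median of 7341.5 and 10862.5 UMIs per cell, and 9742 in control and 17209 in BTYNB. Between 0 and 4 cell barcodes were shared by any pair of libraries, and 1 by anti-PD-1 and combination.

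Mesothelial genes that the rule did not use were present in the cells, as the label of an ovarian surface line implies. Msln, a surface protein of mesothelium, stood at 83.0 CPM (anti-PD-1) and 67.1 CPM (combination), and the uroplakin Upk3b at 578 and 636 CPM. The epithelial adhesion gene Epcam was near absent, with 14 and 10 UMIs. Trp53 itself was counted at 26.2 and 30.9 CPM. Reads from the end of a transcript need not show a deletion elsewhere in the gene, and the place of the reads was not examined. These counts therefore check nothing about the knockout.

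The libraries differed in how many leukocytes surrounded the tumour cells. A Ptprc UMI was present in 6.40% of anti-PD-1 cells and 36.1% of combination cells. Cells with a Ptprc UMI and at most 1 UMI of the tumour markers numbered 225 and 1306. The summed level of 16 macrophage and monocyte markers, none of them at 0, was 154 CPM in the tumour cells of anti-PD-1 and 209 CPM in those of combination, against 32956 and 17725 CPM in the Ptprc-positive cells. The summed tumour-cell levels of other marker lists were 14.1 and 19.5 CPM for T and NK cells, 52.0 and 48.5 CPM for dendritic cells, 2.88 and 1.69 CPM for neutrophils, 52.2 and 9.57 CPM for mast cells, 47.1 and 31.5 CPM for erythroid cells and 310 and 299 CPM for fibroblasts. Most of the mast cell sum of anti-PD-1 was Cma1, described below, and its Ptprc-positive cells held 13.1 CPM of that list, less than its tumour cells. Most of the fibroblast sums was Dcn. A Dcn UMI was found in 65.5% (anti-PD-1) and 63.9% (combination) of the tumour cells after each cell was thinned to the same number of UMIs. Without thinning these shares were 74.1% and 82.4%. Trac made up most of the T and NK sum of anti-PD-1. It stood at 11.1 CPM in its tumour cells with 0 limit-gene UMIs and 10.6 CPM in those with 1 to 4. Of Ptprc-positive cells of at least 5115 UMIs, 0 of 36 in anti-PD-1 and 70 of 1306 in combination held a Trac UMI. For the B cell marker Cd79a these counts were 0 and 99. The part of these cell types in the results that follow was not tested. From such markers, the share of tumour UMIs that could be free RNA of the whole library was estimated at 21.4% in anti-PD-1 and 9.18% in combination. Genes whose level in Ptprc-positive cells was at least 3 times that in tumour cells, in either library, are called leukocyte-rich here and are given with that mark.

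Genes were named by a rule of size, and Kdm3a, Ddit4, Aldoa, Tpi1, Pgam1, Pkm, Hk1, Fos, Egr1, Dusp1, Ctnnb1, Actb and the mesothelial genes above were added after their values were seen. Car9, Cd44, Cpa3, Mcpt4 and Epcam are also given outside that rule.

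Over 12153 genes with at least 100 UMIs in either library, 425 (3.5%) were higher in combination by at least 1.5-fold and 312 (2.57%) were lower. At 2-fold, 74 genes (0.609%) were higher and 82 (0.675%) lower. Of the 11070 genes that were not leukocyte-rich, 293 were higher and 245 lower at 1.5-fold, and 36 and 53 at 2-fold. The median over all genes was 0.02, which the scaling to the library total holds near 0, and the lower side held the larger ratios.

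**Figure D1:**
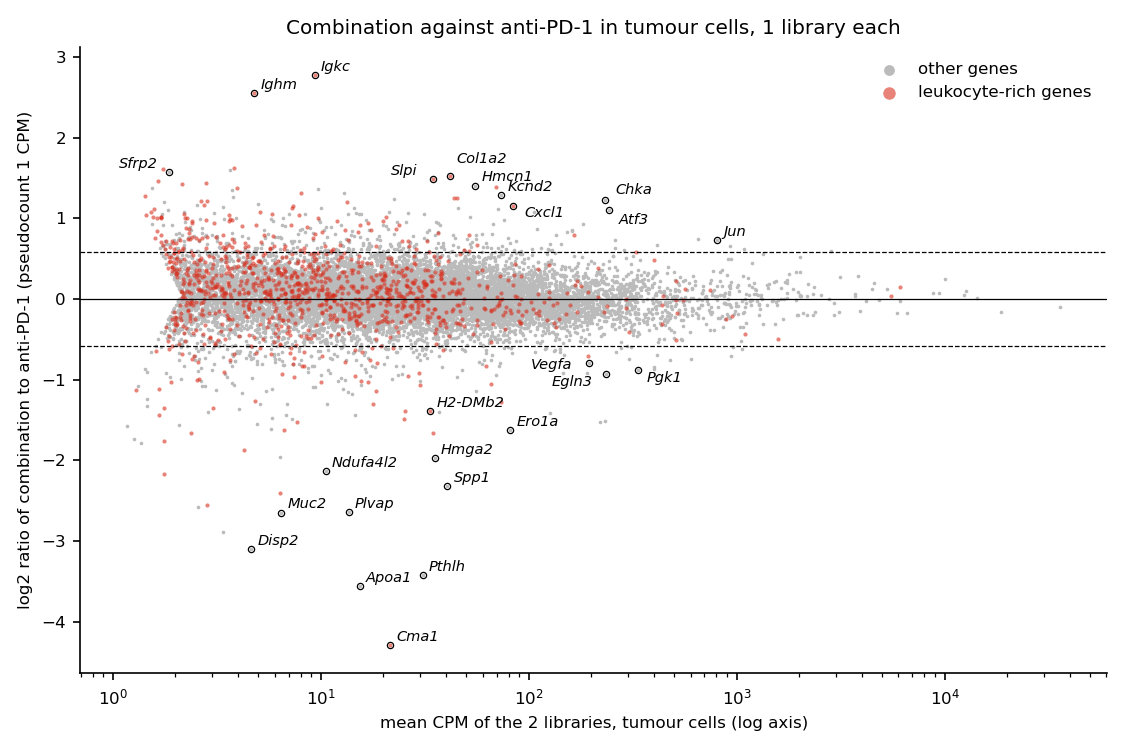
Each point is 1 gene, with the mean CPM of the anti-PD-1 and combination libraries on a log axis against the log2 ratio of combination to anti-PD-1 (pseudocount 1 CPM); red points are leukocyte-rich genes and dashed lines mark 1.5-fold. Apoa1, Pthlh and Disp2 lie below -3, while Sfrp2 and Hmcn1, which are not leukocyte-rich, lie at 1.58 and 1.40.

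Genes of the hypoxia response were lower in combination. Of 17 members with enough UMIs, out of 18 listed, 9 were lower by at least 1.5-fold and 0 higher, and all 17 ratios lay below 0, with a median of -0.62. Background shares at this fold were 2.57% lower and 3.5% higher. Ero1a, which reoxidises protein disulphide isomerase in the endoplasmic reticulum, stood at 44.0 CPM (control), 42.9 (BTYNB), 124 (anti-PD-1) and 39.6 (combination). Its ratio was -1.62 (-1.70 to -1.55). Anti-PD-1 was the one high library of the 4, and combination lay at the level of control and BTYNB. The same order held for Egln3, a prolyl hydroxylase that marks hypoxia-inducible factors for decay, at 179, 175, 309 and 162 CPM, with a ratio of -0.93 (-0.97 to -0.89). Vegfa, the vessel growth factor, stood at 150, 163, 248 and 143 CPM in that order of libraries, a ratio of -0.79 (-0.83 to -0.75). P4ha1, a collagen prolyl hydroxylase, gave 35.3, 34.6, 59.9 and 30.1 CPM, and Pdk1, which keeps pyruvate out of the mitochondrion, gave 13.8, 13.2, 21.4 and 9.68 CPM. These 5 genes were highest in anti-PD-1, and the list median of BTYNB against control was -0.06.

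Anti-PD-1 was also the highest library for Ndrg1 and Slc2a1, but control lay nearer to it than in the genes above. Ndrg1, a stress-responsive gene, was at 282 CPM (control), 205 (BTYNB), 321 (anti-PD-1) and 203 (combination), so both BTYNB libraries lay below both libraries without it. Slc2a1, the glucose transporter Glut1, gave 34.2, 30.3, 38.9 and 24.9 CPM. Ankrd37 (ratio -1.27) and Bnip3 (-0.78) were leukocyte-rich, and without leukocyte-rich genes the list median was -0.34. The members nearest to 0 were Mxi1 (-0.03), Kdm3a (-0.10) and Ddit4 (-0.16). Car9, a carbonic anhydrase widely used as a hypoxia marker, was at 11.9, 18.98, 23.2 and 19.6 CPM, so it did not follow Ero1a.

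The sequences before the starts of the lower hypoxia genes were read from RefSeq (GRCm38.p6), since these genes moved together, and the letters ACGTG, on either strand, are in capitals. The 9 lower members have 8 entries in the table, of which 6 hold the letters within 250 bases before the start, and up to 20 bases are shown on each side of the match nearest the start. The windows were chosen after the values were seen.
Ero1a, chr14:45318611-45318655, minus strand: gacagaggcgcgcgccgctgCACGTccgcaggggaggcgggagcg
Ankrd37, chr8:45999851-45999876, minus strand: gcacatgtcagtgtttgggtACGTGa
P4ha1, chr10:59323260-59323295, plus strand: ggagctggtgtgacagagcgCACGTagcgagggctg
Egln3, chr12:54204079-54204123, minus strand: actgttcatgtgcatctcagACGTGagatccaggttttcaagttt
Bnip3, chr7:138909589-138909633, minus strand: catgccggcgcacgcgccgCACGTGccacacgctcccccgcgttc
Slc2a1, chr4:119108689-119108733, plus strand: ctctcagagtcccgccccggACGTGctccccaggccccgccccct

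The match lay 59 bases before the start of Ero1a, 2 before that of Ankrd37 and 225 before that of Egln3. In Bnip3 both strands match in the letters CACGTG, which is also the E-box searched below. Over all starts in the table, 12 of 15 hypoxia genes with an entry and 10 of 18 glycolysis genes (55.6%) held the letters, against 2408 of 9463 genes (25.4%). Genes called lower and not leukocyte-rich held them in 23.04% and genes called higher in 21.6%, so the share was higher over the list than over the genes called. A match is a description of the letters and not of a bound site.

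Glycolysis genes were lower as well. Of 18 members with enough UMIs, out of 19 listed, 5 were lower by at least 1.5-fold and 0 higher, with a median of -0.49 and 1 member above 0. Pgk1, phosphoglycerate kinase, stood at 281 CPM (control), 257 (BTYNB), 437 (anti-PD-1) and 237 (combination), a ratio of -0.88 (-0.91 to -0.84). Ldha, which turns pyruvate into lactate, gave 339, 273, 380 and 227 CPM (-0.74, interval -0.78 to -0.71). For Pgk1 anti-PD-1 was the high library, whereas for Ldha the BTYNB libraries were the low ones and anti-PD-1 was little above control. Eno1, enolase, went with BTYNB more than with the antibody, at 234, 146, 183 and 113 CPM, with a ratio of -0.69 in the presence of the antibody and -0.68 in its absence. Aldoa, Tpi1, Pgam1 and Pkm had ratios between -0.58 and -0.50 and did not reach 1.5-fold. The hexokinase Hk2, induced in many tumours, was at 69.1, 65.1, 99.8 and 65.2 CPM (-0.61), and Hk1, the constant form, at 44.8, 45.04, 43.5 and 42.4 CPM (-0.04).

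Depth and the limit genes both differ between the libraries, so the lists were also read within classes of cells. Over cells from 5115 to 8000 UMIs, from 8000 to 12000 and above, the hypoxia median was -0.66, -0.48 and -0.53. These classes held 3793, 2102 and 255 anti-PD-1 cells and 887, 1288 and 1563 combination cells. Over cells with 0 UMIs of the limit genes in both libraries, 3290 and 2150 cells, it was -0.47, and the glycolysis median was -0.46. The sign was thus kept in each class, and the size was smaller in cells without limit-gene UMIs.

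**Figure D2:**
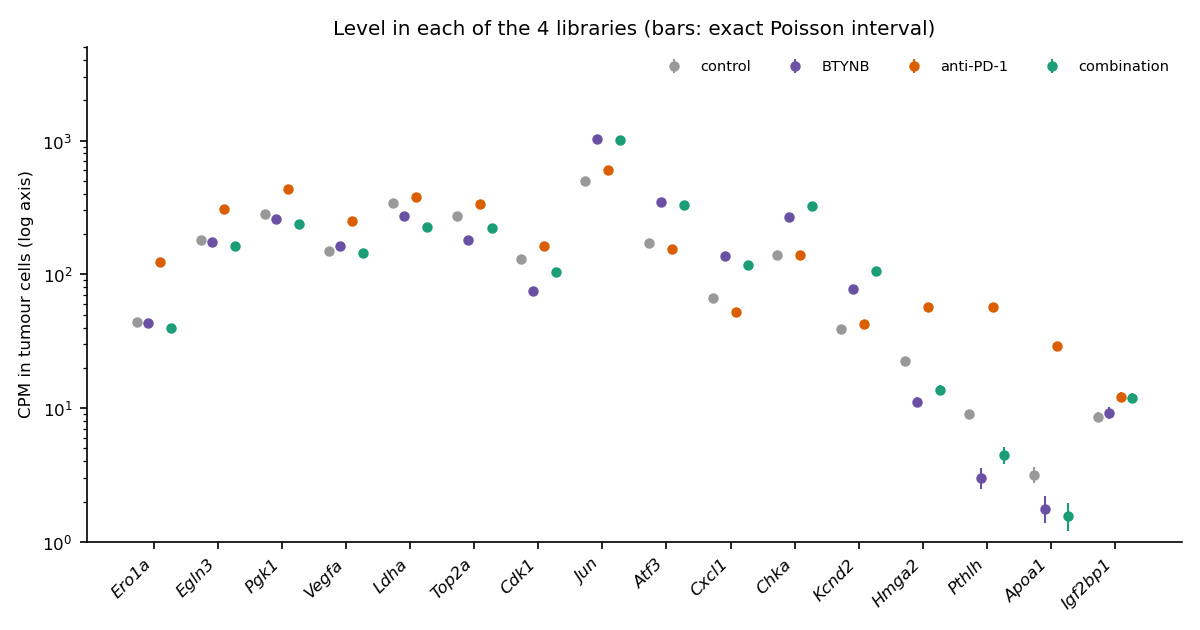
CPM in tumour cells on a log axis for 16 genes in each of the 4 libraries, with exact Poisson 95% bars that cover counting error only. Ero1a, Egln3, Pgk1 and Vegfa are highest in anti-PD-1, while Jun, Atf3, Cxcl1, Chka and Kcnd2 are higher in both libraries with BTYNB than in both without it.

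The lowest genes of combination were highest in anti-PD-1, and some were near 0 in the other libraries. Among the 12 lowest that were not leukocyte-rich, Apoa1, the main protein of high-density lipoprotein, stood at 3.17 CPM (control), 1.77 (BTYNB), 29.1 (anti-PD-1) and 1.55 (combination). Its ratio was -3.56 (-3.78 to -3.33), on 1397 and 70 UMIs. Pthlh, the parathyroid hormone-related protein that carcinomas can secrete, gave 8.96, 2.98, 57.4 and 4.44 CPM (-3.42, interval -3.60 to -3.25). Anti-PD-1 was the high library for both, and for Pthlh control lay above the BTYNB libraries. Disp2, a transmembrane protein of the dispatched family, was at 0.450, 0.0918, 9.10 and 0.178 CPM.

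Secreted mucins followed that order. Muc5b was at 0.0901 CPM (control), 0 (BTYNB), 6.72 (anti-PD-1) and 0.0444 (combination), the last on 2 UMIs. Muc2, the intestinal gel mucin, was at 0.315, 0.987, 11.8 and 1.04 CPM. Gkn2, a gastric protein and one of the limit genes, had 244 UMIs (anti-PD-1) and 1 UMI (combination), and since the rule limits it, its value follows partly from the choice of cells. Spp1, osteopontin, gave 17.2, 11.6, 68.2 and 12.9 CPM, with a ratio of -2.32 (-2.44 to -2.20). Plvap, a protein of endothelial diaphragms, gave 3.89, 2.85, 24.2 and 3.04 CPM. Ndufa4l2, a hypoxia-induced subunit of the respiratory chain, gave 4.53, 4.31, 17.8 and 3.29 CPM, again with anti-PD-1 alone high. Bace2, a membrane protease, and Hapln1, a link protein of hyaluronan, closed the group at -1.95 and -1.78, the latter on 128 and 3 UMIs.

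Leukocyte-rich genes among the 12 lowest were Cma1, Apoc4, Mpzl2 and Gcnt3. Cma1, a chymase of mast cells, was the lowest of all, at 3.30 CPM (control), 0.941 (BTYNB), 42.0 (anti-PD-1) and 1.199 (combination), a ratio of -4.29 (-4.51 to -4.06). The mast cell genes Cpa3 and Mcpt4 were at 0.647 and 0.355 CPM in the tumour cells of anti-PD-1, and Cma1 was at 5.04 CPM in its Ptprc-positive cells, so in that library Cma1 was lower there than in tumour cells. It was leukocyte-rich by the 64.2 CPM in the Ptprc-positive cells of combination. Gcnt3, an enzyme of mucin glycans, had 168 UMIs in anti-PD-1 and 0 in combination. In combination Gcnt3 met the leukocyte-rich limit at 0 CPM in both kinds of cell, with a UMI in 0 of 1306 Ptprc-positive cells. Its mark there thus shows no level in leukocytes. Against a floor of 3 UMIs per library it was at least 52.6-fold lower in combination.

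The promoters of the most changed genes that were not leukocyte-rich are shown because these genes differed most between the libraries. They are the 250 bases before the start in RefSeq (GRCm38.p6), for the 5 genes of largest change with an entry, and capitals mark any match to the motifs searched. The motifs were TGANTCA (AP-1), TGACGTCA (CRE), CACGTG (E-box), ACGTG (HRE), the NF-kB motif and the interferon-stimulated response element (ISRE), each on both strands, and every CACGTG also holds ACGTG.
Apoa1, chr9:46228380-46228629, plus strand: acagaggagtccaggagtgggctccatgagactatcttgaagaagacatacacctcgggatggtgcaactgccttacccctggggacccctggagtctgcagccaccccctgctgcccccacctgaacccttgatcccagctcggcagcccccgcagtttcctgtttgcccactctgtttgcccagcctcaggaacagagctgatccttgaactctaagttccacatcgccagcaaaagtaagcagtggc
Pthlh, chr6:147264014-147264263, minus strand: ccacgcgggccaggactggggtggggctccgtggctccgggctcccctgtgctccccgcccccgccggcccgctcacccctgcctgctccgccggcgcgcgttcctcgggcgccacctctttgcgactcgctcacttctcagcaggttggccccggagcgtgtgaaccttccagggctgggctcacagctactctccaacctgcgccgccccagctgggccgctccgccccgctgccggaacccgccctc
Muc2, chr7:141690090-141690339, plus strand: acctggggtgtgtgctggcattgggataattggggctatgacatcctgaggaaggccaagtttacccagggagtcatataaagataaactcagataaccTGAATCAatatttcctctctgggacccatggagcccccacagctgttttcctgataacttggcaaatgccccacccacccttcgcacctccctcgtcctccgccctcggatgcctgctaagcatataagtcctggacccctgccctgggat
Gkn2, chr6:87373115-87373364, plus strand: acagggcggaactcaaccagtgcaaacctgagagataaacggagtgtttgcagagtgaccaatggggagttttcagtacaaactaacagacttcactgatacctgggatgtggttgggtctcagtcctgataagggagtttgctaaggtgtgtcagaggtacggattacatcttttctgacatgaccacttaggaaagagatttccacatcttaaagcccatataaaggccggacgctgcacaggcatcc
Spp1, chr5:104434861-104435110, plus strand: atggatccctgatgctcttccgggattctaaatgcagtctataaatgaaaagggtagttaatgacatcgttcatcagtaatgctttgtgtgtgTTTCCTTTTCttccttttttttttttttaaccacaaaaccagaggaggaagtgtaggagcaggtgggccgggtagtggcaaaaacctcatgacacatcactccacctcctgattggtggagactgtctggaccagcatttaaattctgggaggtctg

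Muc2 held 1 AP-1 match and Spp1 1 ISRE match, and 0 matches were found in Apoa1, Pthlh and Gkn2, which says only that these letters are not in these windows. None of the 5 held the HRE letters. Of 191 genes called lower with an entry, 18 (9.42%) held an AP-1 match, against 5.54% of all genes with an entry. The remaining motif shares of the genes called lie within 4 percentage points of those of all genes.

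Within the anti-PD-1 library most of the lowest genes were higher in cells with more UMIs of the limit genes, over all cells that pass the other limits of the rule. Apoa1 was at 11.2 CPM in anti-PD-1 cells with 0 UMIs of the limit genes, 48.0 CPM in those with 1 to 4, 406 CPM in those with 5 to 9 and 1464 CPM in those with 10 or more. The corresponding cells of combination had 1.198, 1.97, 3.31 and 6.96 CPM. Hmga2 gave 36.1, 78.4, 332 and 447 CPM in anti-PD-1 and 13.7, 13.7, 15.6 and 11.2 CPM in combination. Ero1a gave 85.0, 164, 437 and 626 CPM in anti-PD-1 and 37.7, 41.8, 40.4 and 37.3 CPM in combination. Others did not climb throughout: in anti-PD-1 Spp1 gave 25.4, 113, 627 and 396 CPM, Plvap 17.95, 30.8, 52.1 and 41.9 CPM, and Hapln1 1.88, 3.501, 3.29 and 3.65 CPM. For Apoa1, Hmga2 and Ero1a even the anti-PD-1 cells with 0 UMIs of the limit genes lay above every class of combination, and the distance widened with these UMIs. Cells with 5 or more, which the rule removes, were 2632 of 8782 otherwise passing cells in anti-PD-1 (29.97%) and 631 of 4369 in combination (14.4%). With the estimated free RNA subtracted, the ratio of Apoa1 was 1.33, that of Muc2 1.05, that of Bace2 0.75, that of Disp2 0.24 and that of Gkn2 0.026. Over the whole anti-PD-1 library, which includes the removed cells, Apoa1, Muc2 and Disp2 stood at 366, 135 and 53.8 CPM. For these genes the amount to subtract exceeded the tumour-cell level of anti-PD-1, and levels below 0 were set to 0. Their positive ratios rest on that floor and give no direction. Ero1a, Pthlh, Hmga2, Spp1, Plvap and Ndufa4l2 stayed lower by at least 1.5-fold under that subtraction.

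**Figure D3:**
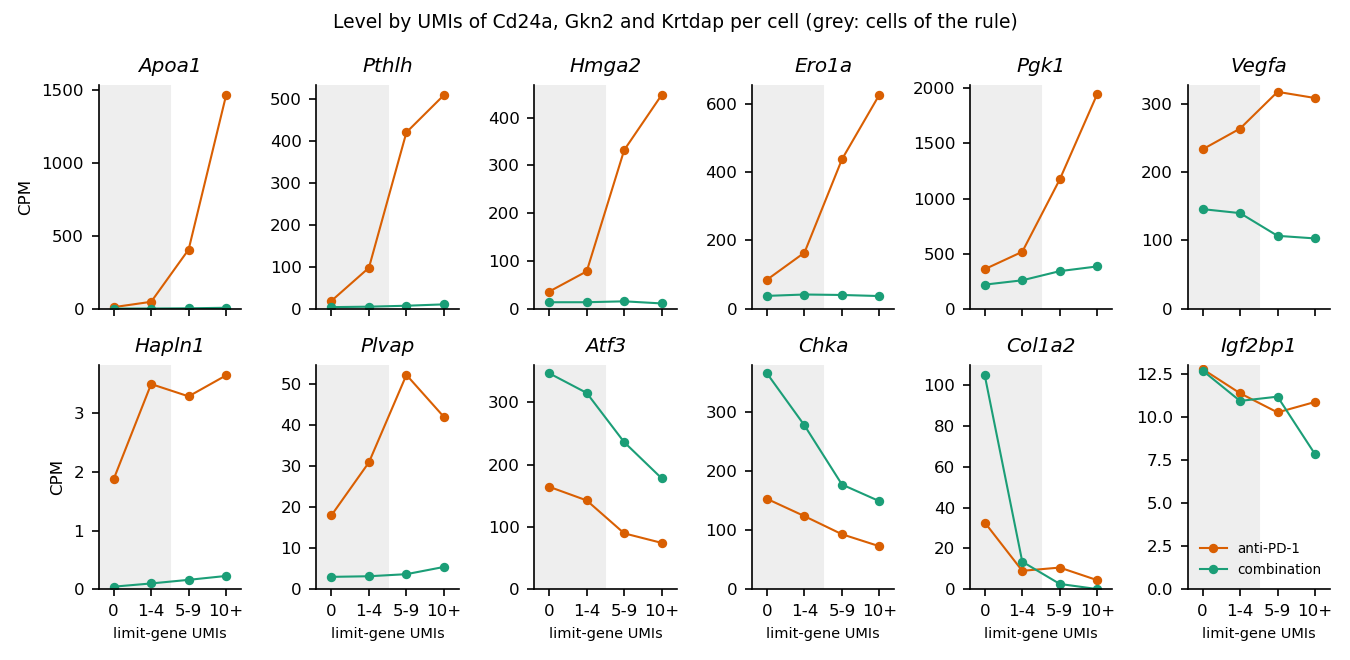
CPM of 12 genes against the number of UMIs of Cd24a, Gkn2 and Krtdap per cell, in cells that pass the other limits of the rule, for anti-PD-1 (orange) and combination (green); grey marks the cells kept as tumour cells. Apoa1, Pthlh, Hmga2 and Ero1a climb in anti-PD-1 and stay low in combination, whereas Atf3 and Chka are higher in combination in every class and Igf2bp1 lies between 7.85 and 12.8 CPM throughout.

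Genes of G2 and M phase were lower in combination. Of 54 G2 and M phase genes, 10 were lower by at least 1.5-fold and 0 higher, 2 lay above 0, and the median was -0.37. Of 45 S phase genes, 2 were lower and 0 higher, near the 2.57% of all genes, with a median of -0.21. Top2a, the topoisomerase of dividing cells, stood at 274 CPM (control), 182 (BTYNB), 336 (anti-PD-1) and 221 (combination) (-0.60, interval -0.64 to -0.57). Cdk1, the kinase that drives mitosis, gave 130, 74.5, 162 and 104 CPM (-0.63). Aurkb, a mitotic kinase of the chromosomal passenger complex, had the lowest ratio of the G2 and M list at -0.72, on 32.1, 17.2, 36.5 and 21.8 CPM. For all 3, each BTYNB library lay below its partner without BTYNB, and each antibody library above its isotype partner. Rrm2, a subunit of ribonucleotide reductase, was the lowest S phase gene at 64.1, 41.4, 92.0 and 47.5 CPM (-0.94, interval -1.01 to -0.87), and Exo1, an exonuclease of DNA repair, was the other one past 1.5-fold (-0.59). The medians of BTYNB against control were larger in size, at -0.57 for G2 and M phase and -0.47 for S phase.

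The share of cycling cells differed as well. With every cell thinned to 5115 UMIs, cells with 2 or more UMIs in all of Mki67, Top2a, Cdk1, Ccnb1 and Birc5 made up 42.1% of the tumour cells in control and 25.4% in BTYNB, against 45.1% (43.8 to 46.3%) in anti-PD-1 and 35.4% (33.9 to 37.0%) in combination. When cells with 2 or more of these UMIs before thinning were left out, 3034 and 1993 cells remained and the median of the G2 and M list was -0.19 instead of -0.37. A Top2a UMI was found in 45.6% of thinned anti-PD-1 cells and 33.4% of combination cells, and in 51.4% and 44.6% without thinning. Over the classes of depth the G2 and M median was -0.38, -0.81 and -0.63.

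Immediate early genes were higher in combination. Of 28 listed, all had enough UMIs, 8 were higher by at least 1.5-fold and 0 lower, 25 lay above 0, and the median was 0.49. Atf3, a stress-induced transcription factor, stood at 172 CPM (control), 345 (BTYNB), 154 (anti-PD-1) and 332 (combination), a ratio of 1.11 (1.07 to 1.15). Jun, a subunit of AP-1, gave 502, 1025, 603 and 1002 CPM (0.73, interval 0.71 to 0.75). Csrnp1, a nuclear protein induced by Axin, gave 108, 232, 115 and 207 CPM (0.85). In all 3 genes both BTYNB libraries lay above both libraries without it. Klf4 (0.74), Gadd45b (0.76), Btg2 (0.67), Fosb (0.66) and Fosl2 (0.60) were the other genes past 1.5-fold, while Fos (0.52), Egr1 (0.49) and Dusp1 (0.50) fell short of it. Dusp6, which switches off the Erk kinases, had the lowest ratio, -0.14, with 418, 551, 551 and 499 CPM. The median of BTYNB against control was 0.60.

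The difference was spread over many cells. The median tumour cell held 52 UMIs of the list in anti-PD-1 and 74 in combination after thinning, with quartiles of 34 and 76 and of 43 and 112, and 50 in control and 82 in BTYNB. An Atf3 UMI was found in 45.8% (44.5 to 47.0%) of thinned anti-PD-1 cells and 67.3% (65.8 to 68.8%) of combination cells, against 55.2% and 81.6% without thinning. The 1% of cells with most Atf3 held 7.25% and 6.17% of its UMIs. Over the classes of depth the list median was 0.65, 0.78 and 0.67, and over cells without limit-gene UMIs 0.50. Ptprc-positive cells made these genes too (Atf3 at 202 and 496 CPM, in 47.2% of 36 and 75.3% of 1306 such cells of at least 5115 UMIs, with median depths of 5587.5 and 6771), so the share is no mark of tumour cells. Early genes also respond to tissue handling. The study's methods describe freezing of ascites cells and removal of dead cells before capture. Whether handling differed between the libraries is not given in the sources used here, so treatment and handling cannot be told apart.

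**Figure D4:**
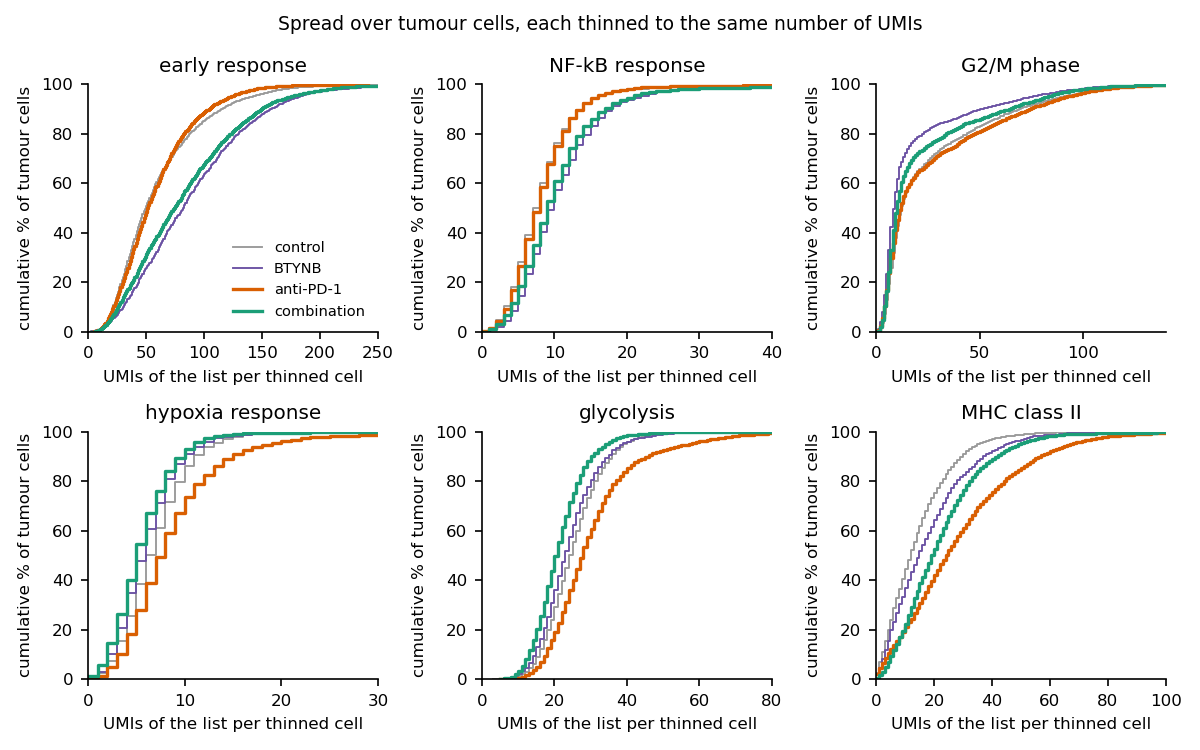
Cumulative percent of tumour cells against the UMIs of a list per cell, after thinning each cell to 5115 UMIs, for 6 lists and the 4 libraries. The early response curve of combination lies to the right of anti-PD-1 (medians 74 and 52 UMIs), the hypoxia and glycolysis curves lie to the left (medians 5 against 8 and 21 against 28 UMIs), and the G2/M curves part above the median, which is 10 against 12 UMIs.

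Genes of the NF-kB response were higher in part. Of 32 members with enough UMIs, out of 34 listed, 8 were higher by at least 1.5-fold and 0 lower, 25 lay above 0, and the median was 0.30 (0.40 for BTYNB against control). Cxcl1, a chemokine that attracts neutrophils, stood at 66.8 CPM (control), 138 (BTYNB), 52.1 (anti-PD-1) and 117 (combination) (1.15, interval 1.08 to 1.22). It was leukocyte-rich through 212 CPM in the Ptprc-positive cells of anti-PD-1. Nfkbiz, a nuclear co-activator of NF-kB, gave 90.2, 155, 99.1 and 151 CPM (0.60, interval 0.55 to 0.66) and the leukocyte-rich Tnfaip3, a feedback inhibitor, 20.7, 33.3, 19.6 and 32.8 CPM (0.72). Both followed BTYNB in the presence and in the absence of the antibody. Ccl2 (0.87) and Ccl7 (0.65), chemokines for monocytes, and Nfkbid (1.07) were leukocyte-rich, and the levels of Ccl2 in Ptprc-positive cells were 746 and 671 CPM against 16.0 and 30.1 CPM in tumour cells. Tnfaip2 had the lowest ratio of the list, -0.32. Saa3, leukocyte-rich and the highest of the list, gave 42.7, 89.7, 37.8 and 101 CPM (1.39). Without leukocyte-rich genes the median of the list was 0.15, and without the collagen-rich cells described below it was 0.16 and the ratio of Saa3 was -0.20.

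Other chemokines differed in both directions. Cxcl12, the ligand of Cxcr4, stood at 29.9 CPM (control), 41.7 (BTYNB), 20.1 (anti-PD-1) and 42.8 (combination) (1.06, interval 0.95 to 1.17), and it was not leukocyte-rich. A Cxcl12 UMI was found in 8.24% of thinned anti-PD-1 cells and 16.8% of combination cells. Cx3cl1, a membrane-bound chemokine, went the other way at 11.2, 9.20, 17.9 and 8.42 CPM (-1.002, interval -1.16 to -0.84). Cxcl5, a neutrophil chemokine, was rare, with 20 and 120 UMIs (1.37). Ccl5 (1.001) was leukocyte-rich. Over the chemokine and cytokine list 6 of 24 were higher and 2 lower, the other lower one being Spp1.

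**Figure D5:**
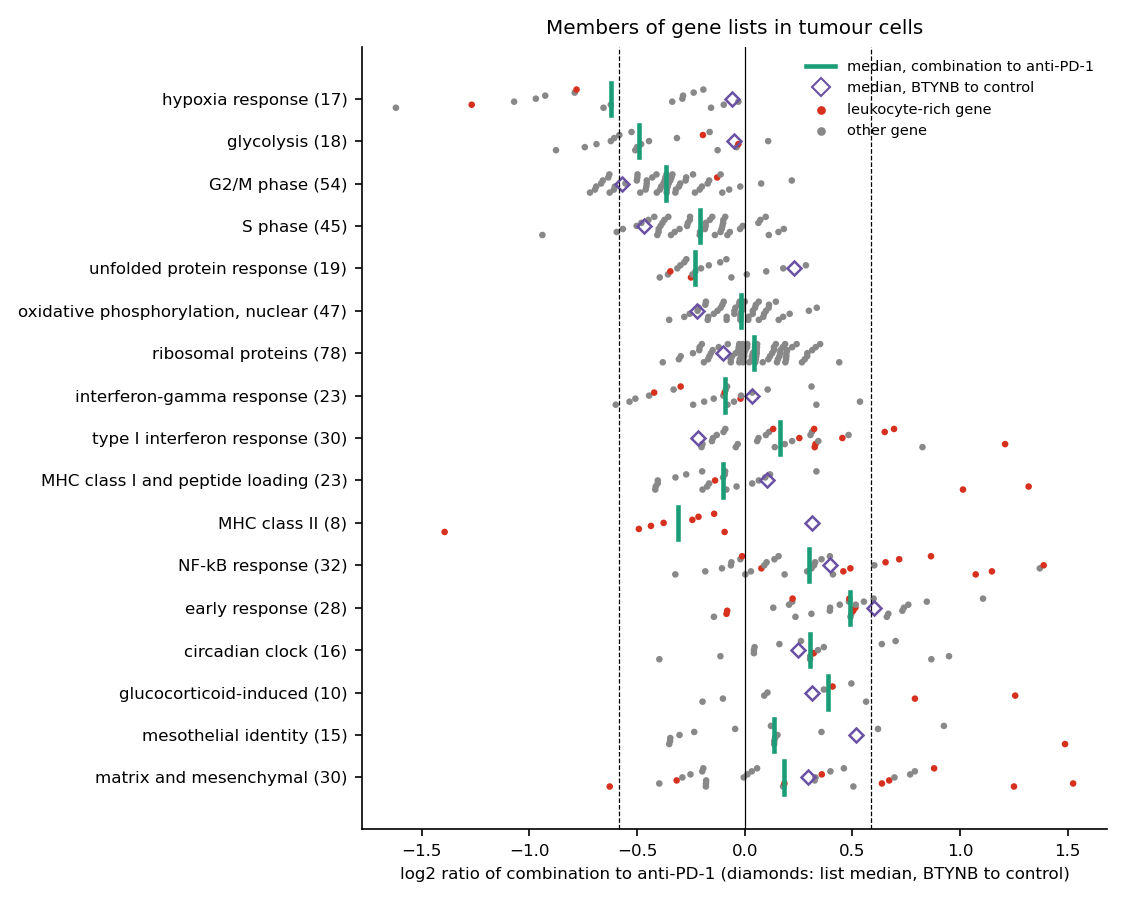
Each point is a member of a gene list (number of members with enough UMIs in parentheses), placed by its log2 ratio of combination to anti-PD-1; the green bar is the list median, the open diamond the median of BTYNB against control, and dashed lines mark 1.5-fold. The bar lies left of 0 for hypoxia (-0.62), glycolysis (-0.49) and G2/M phase (-0.37) and right of 0 for early response (0.49) and NF-kB response (0.30); bar and diamond lie on opposite sides of 0 for MHC class II, unfolded protein response and type I interferon response.

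The highest genes that were not leukocyte-rich were mostly also higher with BTYNB in the absence of the antibody. Chka, choline kinase, was the most abundant of them, at 140 CPM (control), 267 (BTYNB), 139 (anti-PD-1) and 325 (combination) (1.22, interval 1.18 to 1.26). Kcnd2, a subunit of a potassium channel, gave 38.8, 78.0, 42.5 and 105 CPM (1.29, interval 1.22 to 1.37). Hmcn1, an extracellular matrix protein of the hemicentin family, gave 30.4, 68.5, 29.8 and 80.6 CPM (1.40, interval 1.32 to 1.49). The libraries without BTYNB were close to each other for all 3, and combination lay above BTYNB. Grip1 (1.36), Ccdc187 (1.35), Tspan7 (1.27), Nr6a1 (1.23), Bmpr1b (1.17) and Sohlh1 (1.13) were others of this kind, with ratios of BTYNB to control between 0.63 and 0.96. A Chka UMI was found in 46.3% of thinned anti-PD-1 cells and 64.7% of combination cells (58.0% and 82.4% without thinning), and in 16.7% and 34.2% of the Ptprc-positive cells of at least 5115 UMIs.

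Of the 74 genes higher by 2-fold, 38 were leukocyte-rich, against 1083 of all 12153 genes. Of the 82 genes lower by 2-fold, 53 were not leukocyte-rich. Among the higher genes, the immunoglobulin genes Igkc and Ighm led with ratios of 2.77 and 2.55. Igkc was at 5.96 CPM (control), 16.9 (BTYNB), 1.65 (anti-PD-1) and 17.1 (combination), and its level in the Ptprc-positive cells of combination was 416 CPM. It was found in 4.92% of the thinned tumour cells of combination and in 8.35% of the Ptprc-positive cells. The summed level of 6 B cell markers in tumour cells was 25.2 and 58.8 CPM, with 0 of them at 0 UMIs, and it moved with these genes. Retnla (1.62), a product of alternatively activated macrophages, Ebf1 (1.61), a factor of B cells, Gimap6 (1.46) and Ly6c2 (1.44) were of the same kind. Cells with 2 or more UMIs in all of Tyrobp, Fcer1g, Lyz2, C1qa and C1qb were 3.01% of the tumour cells of anti-PD-1 and 4.71% of those of combination.

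The UMIs of type I collagen lay mostly in a small number of cells. The leukocyte-rich Col1a2, a chain of type I collagen, stood at 28.6 CPM (control), 74.1 (BTYNB), 21.1 (anti-PD-1) and 62.6 (combination) (1.53, interval 1.43 to 1.63), and Slpi, a protease inhibitor of epithelia and leukocyte-rich as well, at 31.8, 52.1, 17.7 and 51.6 CPM (1.49, interval 1.38 to 1.598). The mark of Col1a2 came from the few Ptprc-positive cells of anti-PD-1. Of Ptprc-positive cells of at least 5115 UMIs, 5 of 36 in anti-PD-1 and 8 of 1306 in combination held a Col1a2 UMI. Cells with 5 or more UMIs of Col1a1 and Col1a2 after thinning numbered 41 of 6150 in anti-PD-1 (0.667%, 0.479 to 0.903%) and 52 of 3738 in combination (1.39%, 1.04 to 1.82%). They held 93.1% and 97.0% of the Col1a2 UMIs, 83.5% and 87.6% of those of Slpi, and 70.6% and 93.9% of those of Sfrp2, a secreted regulator of Wnt. Wt1 was at 448 and 650 CPM in these cells against 746 and 942 CPM in the other tumour cells. Outside them Sfrp2 was at 0.160 and 0.265 CPM and the leukocyte-rich acute-phase gene Saa3 at 21.3 and 19.3 CPM. When cells with 5 or more of these collagen UMIs before thinning were left out, 6099 and 3667 cells remained, and the ratio of Sfrp2 was -0.02 and that of Saa3 -0.20 instead of 1.39. Of 30 matrix and mesenchymal genes 8 were higher and 1, Tgfbi, was lower (-0.63), with a median of 0.18 that was 0.01 without the collagen-rich cells. Col3a1, a chain of type III collagen, had 13.8% and 22.8% of its UMIs in the 41 and 52 cells and stood at 25.7 and 36.4 CPM in the others. Col6a2, which is broader, gave 38.8, 68.3, 47.1 and 77.0 CPM, and its ratio of 0.70 was 0.60 without the collagen-rich cells.

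Clock genes and genes induced by glucocorticoids were higher in part. Of 16 clock genes with enough UMIs, 4 were higher and 0 lower, with a median of 0.30. Cry2, a repressor of the clock, stood at 32.6 CPM (control), 48.0 (BTYNB), 24.0 (anti-PD-1) and 47.3 (combination) (0.95, interval 0.85 to 1.05). Cry1 (0.87) and Per2 (0.70), repressors as well, and Nfil3 (0.64), a repressor of clock output, were the others. Dbp, an output activator, was the lowest at 33.7, 19.7, 24.2 and 18.1 CPM (-0.40). Of 10 glucocorticoid-induced genes 2 were higher, the metallothioneins Mt2 (1.26) and Mt1 (0.79), both leukocyte-rich, while Fkbp5, a specific target of the receptor, was at 267, 214, 237 and 207 CPM (-0.20). The hour at which each ascites was taken is not given in the sources used here, so treatment and hour cannot be told apart.

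Interferon and antigen presentation genes differed little or in opposite directions. Of 23 genes of the interferon-gamma response 0 were higher and 1 was lower, with a median of -0.09. The lower one, the GTPase Gbp2, stood at 155 CPM (control), 177 (BTYNB), 374 (anti-PD-1) and 247 (combination) (-0.60, interval -0.63 to -0.56), so combination lay between anti-PD-1 and the isotype libraries. In cells with at most 2 UMIs of 7 leukocyte genes, 1094 and 287 cells, the ratio of Gbp2 was 0.23 and the list median 0.26. The 7 genes were Tyrobp, Fcer1g, Lyz2, C1qa, C1qb, Cd74 and Ctss. Cd74, the invariant chain of MHC class II, can itself be induced by interferon-gamma, so these values follow partly from the choice of cells. The list median was also above 0 with no limit on the limit genes (0.13) and in cells of at least 10000 UMIs (0.024). Guanylate-binding proteins are near copies of each other, so their counts may be shared among them. Cxcl10, a chemokine for T cells, was the highest at 35.7, 49.6, 46.2 and 67.3 CPM (0.54). Of 30 type I interferon genes 4 were higher and 0 lower, with a median of 0.16. Of these, Epsti1 (1.21), Mx2 (0.69) and Trim30a (0.65) were leukocyte-rich and Ifit1, at 8.87, 8.79, 5.78 and 11.02 CPM (0.83, interval 0.64 to 1.02), was not, although Ifit genes can share reads.

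MHC class II levels of combination lay between those of anti-PD-1 and control. All 8 members with enough UMIs, out of 10 listed, had ratios below 0, with a median of -0.31, and 1 was lower by at least 1.5-fold. The median turned to 0.040 with no limit on the limit genes and to 0.052 in cells with at most 2 UMIs of 7 leukocyte genes. Cd74 is among those 7, so the value of 0.052, on 1094 and 287 cells, follows partly from the choice of cells. H2-DMb2, a chain of the peptide exchanger H2-DM, stood at 6.27 CPM (control), 11.9 (BTYNB), 49.2 (anti-PD-1) and 18.1 (combination) (-1.39, interval -1.51 to -1.28). Each of the 8 was leukocyte-rich. H2-Aa, named after its values were seen, had 820, 1075, 1854 and 1319 CPM (-0.49). Of 23 MHC class I and loading genes 2 were higher and 0 lower, with a median of -0.10. The higher pair, H2-Q7 (1.32) and H2-Q6 (1.01), are near-identical copies and leukocyte-rich, and their split is uncertain. H2-K1, a classical class I gene, was at 2088, 2832, 3292 and 2936 CPM (-0.17), Tap2, a peptide transporter, at 35.5, 44.6, 62.2 and 46.4 CPM (-0.42), and Cd274, which encodes PD-L1, at 8.46, 13.7, 20.3 and 21.4 CPM (0.08, interval -0.05 to 0.20). Cd274 was leukocyte-rich, at 165 and 127 CPM in the Ptprc-positive cells, and in tumour cells the interval of its ratio spanned 0. Among ligands of immune receptors Tnfsf9, the ligand of 4-1BB and leukocyte-rich, was lower at 10.9 and 5.66 CPM (-0.84), as was Nt5e, the adenosine-forming enzyme CD73, at 8.72 and 4.51 CPM (-0.82), while Cd86 was higher (0.59) and leukocyte-rich.

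Igf2bp1, the target of BTYNB, stood at 8.61 CPM (control), 9.18 (BTYNB), 12.1 (anti-PD-1) and 11.9 (combination), a ratio of -0.02 (-0.18 to 0.13). The interval lies within 1.5-fold. Of 14 transcripts reported as Igf2bp1 targets, out of 16 listed, 1 was lower by at least 1.5-fold and 0 higher, with a median of 0.05. The lower one, Hmga2, a chromatin protein of embryonic and tumour cells, was at 22.3, 11.1, 56.7 and 13.7 CPM (-1.97, interval -2.09 to -1.85). A Hmga2 UMI was found in 15.7% (14.8 to 16.6%) of thinned anti-PD-1 cells and 4.98% (4.30 to 5.72%) of combination cells, in 20.6% and 10.6% without thinning, and in 4 of 36 and 11 of 1306 Ptprc-positive cells. Cd44, an adhesion receptor, was at 194, 162, 230 and 160 CPM (-0.53), and Myc at 142, 154, 135 and 178 CPM (0.40). Ctnnb1 (0.04) lay near 0, as did Actb (0.03), which was leukocyte-rich. Of the oncofetal RNA-binding proteins and partners, Hmga1, the relative of Hmga2, was lower at 112, 54.5, 83.0 and 48.5 CPM (-0.76), lower with BTYNB in both pairs, and Msi1, a translational regulator, was higher at 18.4, 32.3, 20.3 and 33.4 CPM (0.69, interval 0.58 to 0.80). Lin28a, Lin28b and Igf2bp3 did not reach 100 UMIs in either library.

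Lists of general cell function moved little. The medians were 0.04 over 78 ribosomal proteins, -0.02 over 47 nuclear genes of oxidative phosphorylation, 0.07 over 13 genes of the mitochondrial genome, 0.02 over 15 heat shock genes, -0.08 over 19 genes of cholesterol synthesis, -0.08 over 17 apoptosis genes, -0.03 over 28 antioxidant genes and 0.03 over 12 complement genes. Smaller lists gave -0.11 over 20 p53 targets, 0.09 over 18 interferon receptor and signalling genes, -0.16 over 17 ligands of immune receptors, -0.14 over 5 epithelial genes and -0.10 over 3 targets of the aryl hydrocarbon receptor. Of 8 gastric-like genes 2 were higher and 2 lower, from -2.57 to 0.96, and their median of -0.18 ran from -2.23 to 2.14 over the alternatives. The lowest of them was Gkn2, a limit gene of the rule, so these values follow partly from the choice of cells. Genes of the unfolded protein response had a median of -0.23, with 4 of 19 above 0 and 0 past 1.5-fold. Among antioxidant genes Gsto1, a glutathione transferase, was lower at 99.5, 50.2, 92.1 and 52.8 CPM (-0.79) and lower with BTYNB in both pairs, as was the p53 target Perp, a desmosomal protein, at 62.4, 28.6, 49.4 and 27.0 CPM (-0.85). Of 15 mesothelial genes 3 were higher and 0 lower, with a median of 0.14. Muc16, the CA125 antigen, stood at 46.1, 92.1, 46.0 and 88.2 CPM (0.93, interval 0.85 to 0.9997), level within each pair of libraries with the same small molecule, and Aldh1a2, an enzyme of retinoic acid synthesis, gave 58.1, 104, 60.9 and 94.2 CPM (0.62).

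The pair of libraries without the antibody gives the same addition of BTYNB and shares no library with the pair above. BTYNB against control had 525 of 12422 genes higher (4.23%) and 519 lower (4.18%) at 1.5-fold. Among genes measured in both comparisons, 394 were higher in combination and 511 in BTYNB, and 177 were higher in both, which is 44.9% of the former and 34.6% of the latter. Lower genes numbered 269 and 487, with 93 in both, or 34.6% and 19.1%. Genes past the fold in opposite directions numbered 5 of the 394 and 9 of the 269. Chka, Kcnd2, Hmcn1, Jun, Atf3, Muc16 and Cry2 were higher in both pairs, whereas Ero1a (-1.62 and -0.04), Egln3 (-0.93 and -0.04), Ndufa4l2 (-2.14 and -0.06) and Plvap (-2.64 and -0.35) had ratios near or closer to 0 in the absence of the antibody. A difference between the comparisons was not tested, since each group is 1 library.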

How the data were processed

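Ascites cells of animals with the same treatment were pooled, depleted of erythrocytes, frozen, cleared of dead cells and captured on BD Rhapsody, 1 library a group. The authors deposited raw counts of UMIs per gene and cell, made with the BD Rhapsody pipeline on GRCm 39 per the submitters' processing notes. Doublet removal and clustering in the study were not used here. Tumour cells were chosen by the stated limits, and their UMIs were summed per library over 29835 genes. CPM, log2 ratios with a pseudocount of 1 CPM, conditional binomial (Clopper-Pearson) intervals of the ratio, exact Poisson intervals of the level and exact binomial intervals of shares were computed with Python 3.11.15, numpy 2.4.6, scipy 1.17.1 and pandas 2.3.3. Intervals cover counting error only. Shares were compared after each cell was thinned to 5115 UMIs. Scrublet in scanpy 1.11.5 called 4 anti-PD-1 cells (0.0329%) and 36 combination cells (0.509%) as doublets, so it had not worked in the first, and no cell was removed by it. The ratio code was tested on simulated data.

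The members and the 42 gene lists, 10 of them marker lists, were chosen with earlier results of these data known. Named genes were the 12 highest and 12 lowest ratios, the same among genes that were not leukocyte-rich, the extremes of each list and its members past 1.5-fold, and some of them are not reported here. Of the listed symbols 8 were matched by a synonym and 1 was not matched. Alternatives varied the scaling, pseudocount, filters and limits on cells. Promoters came from RefSeq (GRCm38.p6), and coordinates of that build were not mixed with the files, which carry none.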

Additional observations from a re-analysis of the deposited data

Results flagged for a closer look

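Some values lay on opposite sides of 0 in the presence and in the absence of the antibody, given here as combination against anti-PD-1 and then BTYNB against control. Each group is 1 library, so the difference was not tested. H2-DMb2 had log2 ratios of -1.39 and 0.83, C1qa 0.61 and -0.63, Ccr7 -0.83 and 0.62, and Tff2 0.73 and -1.23. The first of each pair changed sign for C1qa (-0.13 under the leukocyte limit), Ccr7 (0.53 with free RNA subtracted) and Tff2 (-2.23 with no limit on Cd24a, Gkn2 and Krtdap, -0.61 without cycling cells). The list medians were -0.31 and 0.31 for MHC class II, -0.10 and 0.10 for MHC class I and peptide loading, 0.16 and -0.22 for the type I interferon response, -0.23 and 0.23 for the unfolded protein response, 0.042 and -0.10 for ribosomal proteins, and -0.14 and 0.12 for epithelial genes.

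Cells with 5 or more UMIs of Cd24a, Gkn2 and Krtdap lie outside the comparison. They were 29.97% of otherwise passing cells in anti-PD-1 and 14.4% in combination, with 7.06% in control and 15.4% in BTYNB.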

How the results depend on the processing

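No paired analysis was possible because each group is 1 library and the labels give no shared replicate numbers. Among the list medians that kept their sign over all 19 alternatives were those from -0.74 to -0.34 for hypoxia, -0.77 to -0.42 for glycolysis, -0.63 to -0.19 for G2/M phase, -0.45 to -0.17 for S phase, 0.45 to 0.69 for early response, 0.15 to 0.41 for NF-kB and 0.06 to 0.50 for type I interferon. Of 179 named genes, 124 were past 1.5-fold. In every one of the 16 alternatives run for genes, 99 of those 124 kept their sign and 49 stayed past 1.5-fold in the same direction. The causes of the changes below were not tested, and the alternatives on cells with 0 limit-gene UMIs, collagen-rich cells and leukocyte-rich genes were chosen after seeing the data.

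Cells of at least 10000 UMIs gave 873 genes higher (181 at 2-fold) and medians of 0.024 for interferon-gamma, -0.16 for MHC class II, 0.69 for early response, -0.45 for S phase, -0.63 for G2/M, -0.43 for glycolysis, -0.39 for hypoxia, -0.084 for ribosomal proteins and 0.082 for erythroid markers. Cells with at most 2 UMIs of 7 leukocyte genes, 1094 and 287 cells, gave 659 genes lower (246 at 2-fold) and medians of 0.26 for interferon-gamma, 0.50 for type I interferon, 0.014 for MHC class I, 0.052 for MHC class II, 0.61 for early response, -0.39 for S phase, -0.28 for G2/M, -0.77 for glycolysis, -0.74 for hypoxia, 0.084 for aryl hydrocarbon receptor targets, 0.090 for epithelial genes and -0.078 for B cell markers. Single ratios there were 0.060 for Bnip3, -0.13 for C1qa, -0.14 for Ccl5, -0.28 for Cd86, -0.064 for Col1a2, -0.064 for Col6a3, 0.23 for Gbp2, -0.16 for H2-Q7, -0.47 for Saa3, -1.13 for Slpi and -1.39 for Tff1. With no limit on Cd24a, Gkn2 and Krtdap, 797 genes were higher (124 at 2-fold) and 764 lower (344), with medians of 0.13 for interferon-gamma, 0.35 for type I interferon, 0.10 for MHC class I, 0.040 for MHC class II, 0.41 for NF-kB, -0.73 for glycolysis, 0.23 for aryl hydrocarbon receptor targets and 0.11 for epithelial genes, and ratios of -3.16 for Tff1 and -2.23 for Tff2, and the median log2 ratio of ribosomal proteins was -0.00167.

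With free RNA subtracted, medians were -0.16 for MHC class I, -0.58 for MHC class II, -0.42 for glycolysis, -0.44 for hypoxia, 0.089 for epithelial genes, 2.14 for gastric-like genes and 0.53 for dendritic markers, and ratios were 1.33 for Apoa1, 0.75 for Bace2, -0.42 for Ccl5, 0.53 for Ccr7, 2.69 for Cd24a, -1.01 for Cd86, 0.24 for Disp2, 0.026 for Gkn2, 1.55 for Krt23, 1.05 for Muc2 and -0.31 for Nfkbid. Levels below 0 after subtraction were set to 0, as those of Apoa1, Muc2 and Disp2 were in anti-PD-1. Without cycling cells, medians were -0.23 for interferon-gamma, -0.19 for MHC class I, -0.42 for MHC class II, 0.53 for early response, -0.19 for G2/M, -0.43 for hypoxia and -0.014 for ribosomal proteins, with -1.35 for Tff1 and -0.61 for Tff2. With 0 limit-gene UMIs, 44 genes were lower at 2-fold and medians were -0.47 for hypoxia, 0.22 for gastric-like genes and -0.038 for T and NK markers. Without collagen-rich cells (5 or more UMIs before thinning), NF-kB was 0.16, Saa3 -0.20 and Sfrp2 -0.017. A pseudocount of 0.1 CPM gave 148 genes higher at 2-fold, and one of 5 CPM gave 160 higher (16 at 2-fold) and 143 lower (28), with 0.45 for early response and -0.36 for hypoxia. At least 20 UMIs in either library gave -0.23 for MHC class II, -0.48 for hypoxia and 0.039 for dendritic markers, and at least 100 UMIs in both gave 39 higher and 45 lower at 2-fold and -0.48 for hypoxia. Without leukocyte-rich genes, 36 were higher and 53 lower at 2-fold, with 0.15 for NF-kB, -0.34 for hypoxia and 0.095 for gastric-like genes. Without thinning, the shares of cells in anti-PD-1 and combination were 55.2% and 81.6% for Atf3, 38.5% and 31.0% for Ero1a, 20.6% and 10.6% for Hmga2, and 51.4% and 44.6% for Top2a. The share of higher genes among all called was 57.7%, and 52.6% with median-of-ratios scaling, 50.7% after thinning, 51.1% with no limit on the limit genes, 67.3% in cells of at least 10000 UMIs and 43.2% under the leukocyte limit.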
